A study of Mus musculus with 6 samples.

Results

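Cytosolic ribosomal protein genes were followed in mouse embryonic fibroblasts, connective tissue cells taken from embryos and grown in a dish. The genes were chosen by name alone: symbols that begin with Rpl or Rps and a digit, or with Rplp or Rpsa, without the S6 kinases and without pseudogenes. This gave 50 genes of the 18193 measured, 26 named for the large (60S) subunit and 24 for the small (40S) subunit. 1 of the 50, Rps19bp1, carries the name but encodes a protein that binds Rps19 and is not itself a part of the ribosome. Where several probe sets were assigned to a gene alone, the one with the strongest average signal stood for it.

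The study compared wild-type cells (MEF-WT, 3 arrays) with cells lacking the tyrosine kinases c-Abl and Arg (MEF-DKO, 3 arrays), to learn how Abl kinases bear on gene expression. Both groups were C57BL/6, came from pooled male and female embryos at 14 days of gestation, and were grown in the same serum-containing medium. Total RNA was labelled with biotin and hybridised to Affymetrix arrays, and the values are linear intensities (signals) per probe set. The labels name neither the alleles nor separate cultures or embryos for the 3 arrays of a group. A p-value here therefore measures array-to-array spread, possibly technical. In such bulk RNA, fewer cells of a type and less RNA per cell cannot be told apart.

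The ribosome joins a small subunit, which reads the mRNA, to a large subunit, which forms peptide bonds, and each is built from ribosomal RNA and a fixed set of small basic proteins. The proteins are needed in near-equal amounts, and their mRNAs are among the most abundant in dividing cells. Most of these mRNAs start with a C followed by a run of pyrimidines, the 5′ terminal oligopyrimidine (TOP) tract, through which mTORC1 signalling controls their translation. Many of the genes have processed pseudogenes elsewhere in the genome, so that short array probes can match several sequences.

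The sequences around the annotated transcript starts of 6 members that the results turn on are given first, since the start site is a shared feature that the choice by name did not use. RefSeq (mouse assembly GRCm38.p6) held a promoter entry for 44 of the 50 members. Each line shows 40 bases before the start and 20 bases from it, 5′ to 3′ on the strand of the gene, with the first 5 transcribed bases in capitals. Rpl11 and Rpsa fell strongly, Rps18 and Rplp2 fell and have a pyrimidine start, and Rps26 and Rpl22l1 rose.
Rpl11 (chr4:136053374-136053433, minus strand): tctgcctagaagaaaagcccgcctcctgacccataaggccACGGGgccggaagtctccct
Rpsa (chr9:120127726-120127785, plus strand): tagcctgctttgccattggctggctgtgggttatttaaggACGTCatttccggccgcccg
Rps18 (chr17:33955646-33955705, minus strand): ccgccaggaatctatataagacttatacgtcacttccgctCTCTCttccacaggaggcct
Rplp2 (chr7:141447611-141447670, plus strand): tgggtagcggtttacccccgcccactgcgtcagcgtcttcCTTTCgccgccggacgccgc
Rps26 (chr10:128626487-128626546, minus strand): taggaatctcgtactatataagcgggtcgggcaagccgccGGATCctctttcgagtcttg
Rpl22l1 (chr3:28805468-28805527, plus strand): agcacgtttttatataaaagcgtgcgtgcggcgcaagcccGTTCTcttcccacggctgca

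A C followed by 4 pyrimidines (C or T) exactly at the annotated start was found in 8 of 52 member promoters (15.4%), against 823 of all 32851 promoter entries (2.51%). The 8 members were Rps18, Rps10, Rpl35, Rplp2, Rpl38, Rpl14, Rps6 and Rps27. Of these 8, 5 fell, 1 rose and 2 did not pass the test, and of the 36 matched members without it 19 fell, 7 rose and 10 did not. The letters CCGGAAG, searched on either strand in the 300 bases from 250 before to 50 after the start, were in 21 of 52 member promoters (40.4%) and in 2910 of all entries (8.86%). Of the 21 members with CCGGAAG 11 fell and 5 rose, and of the 23 without it 13 fell and 3 rose. Both searches describe letters in a window whose start is an annotation, and neither was tested against the differences between the groups.

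Before the results, 3 facts on the arrays bear on every value. The genes that give the groups their name did not pass the test, by limma with Benjamini-Hochberg adjustment over all genes. Abl1 read 184.8 ± 4.46 in MEF-WT and 169.8 ± 8.22 in MEF-DKO (SD, n = 3 each, limma adjusted p = 0.0929). For Abl1 each MEF-DKO array lay below each MEF-WT array, by a small amount. Abl2 read 256.1 ± 9.30 and 254.1 ± 11.9 (limma adjusted p = 0.874), and its groups overlapped. Where these probes lie relative to the deleted exons is not given in the sources used here, so directions below are those of the arrays labelled knockout against those labelled wild type. Arrays of a group correlated at 0.998 or more, and arrays of different groups at 0.905 or less. Fibroblast markers also differed, with 9 of 14 higher and 3 lower (summed signal 14625 to 15407 in MEF-WT, 24900 to 26036 in MEF-DKO). Single markers differed far more than any ribosomal protein gene: the collagens Col1a2 and Col3a1 had mean signals of 2284 and 1934 in MEF-WT and 9.71 and 14.9 in MEF-DKO, and the receptor Pdgfra 9.99 and 1789. Thy1 was near the lowest signals in both groups. The labels do not say whether the cells of a group are 1 line or clone, or whether they were immortalised. Of 10 macrophage and leukocyte markers 3 were higher (summed 183 to 200 against 556 to 594), with the defining Ptprc at 2.59 and 2.64. Beside both marker counts, 24.2% of all genes were higher and 35.5% lower. The part of these differences in the ribosomal protein results was not tested.

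Most of the ribosomal protein genes with a strong signal were lower in MEF-DKO on the authors' scale, by amounts that were small for most and large for a few. Of the 50 members 28 fell and 8 rose at an adjusted p under 0.05, and 14 did not pass. Over all genes 35.5% fell and 24.2% rose, 59.7% in all. The median difference over the members was -0.18 on the log2(signal + 16) scale, against -0.03 over all genes. That direction turned under poly-A spike scaling (0.25 over the members, 0.12 over all genes), in which each array's linear signals were multiplied by 1 factor before the 16 was added. By the ratio of the linear means, 1 member fell at least 2-fold, Rpl11, and 2 rose at least 2-fold, Rpl7l1 and Rps25 (11.7% and 9.07% of all genes). The 3 MEF-DKO signals lay wholly below the 3 MEF-WT signals in 33 members (39.0% of all genes) and wholly above in 10 (25.7% of all genes).

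The members fell into a bright and a dim set with no gene between. In 36 members the mean signal was above 1000 (the lowest 2639), and in 14 it was below (the highest 670); this split was chosen after the values were seen. Among the 36 bright members 26 fell, 3 rose and 7 did not pass, with a median of -0.28. Among the 959 other genes above 1000, 44.9% fell and 43.8% rose, with a median of -0.02. Of the bright members 28 were lower with no overlap and 4 higher, where 45.7% and 44.5% of the other bright genes were. By signal, 35 members lay in the top 1% of genes. Restricted to signals above 5000, 24 of 31 members fell and 2 rose, and 10 of 30 other genes fell and 16 rose (medians -0.30 and 0.14).

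**Figure D1:**
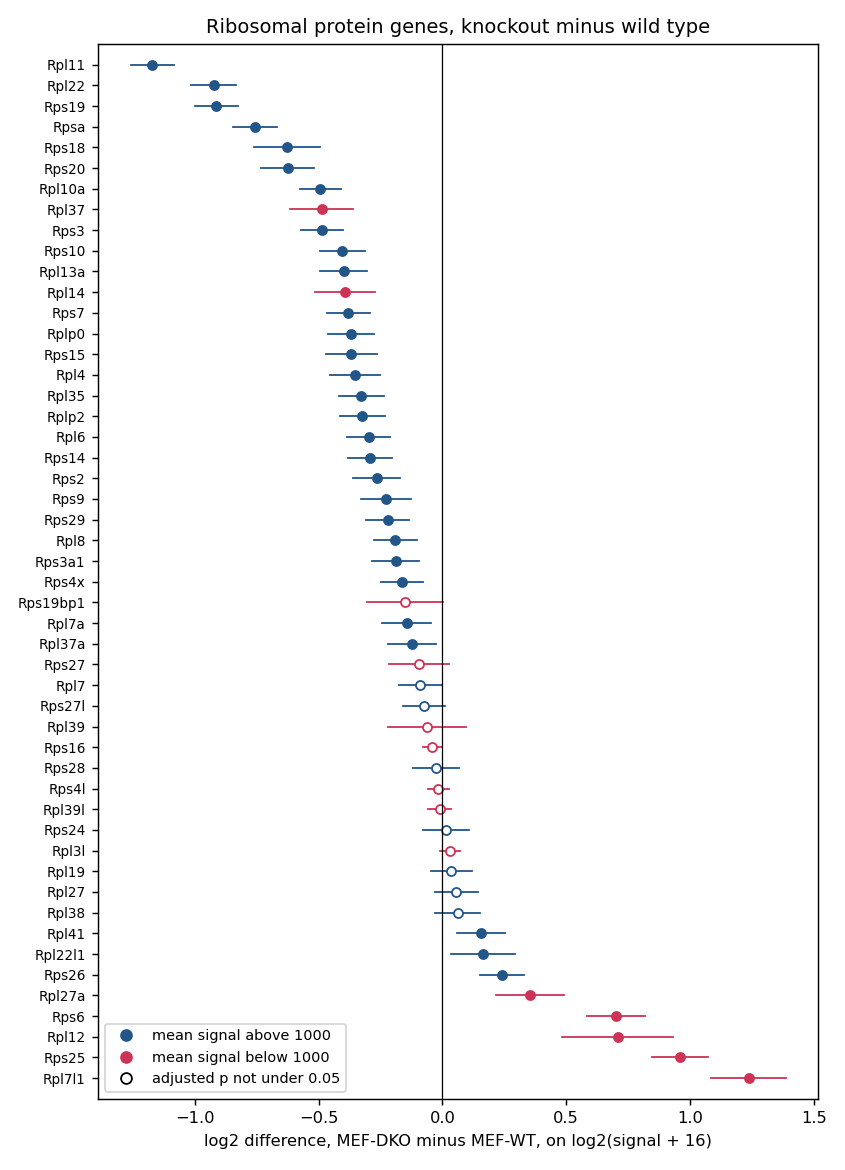
Log2 difference (MEF-DKO minus MEF-WT, on log2(signal + 16), authors' scale) of each of the 50 ribosomal protein genes with its 95% interval from limma; filled points passed adjusted p 0.05, and blue and red mark mean signals above and below 1000. Most blue points lie left of 0, from Rpl11 at -1.17 to Rps26 at 0.24, and under poly-A spike scaling the median of the blue points turned to 0.22.

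**Figure D2:**
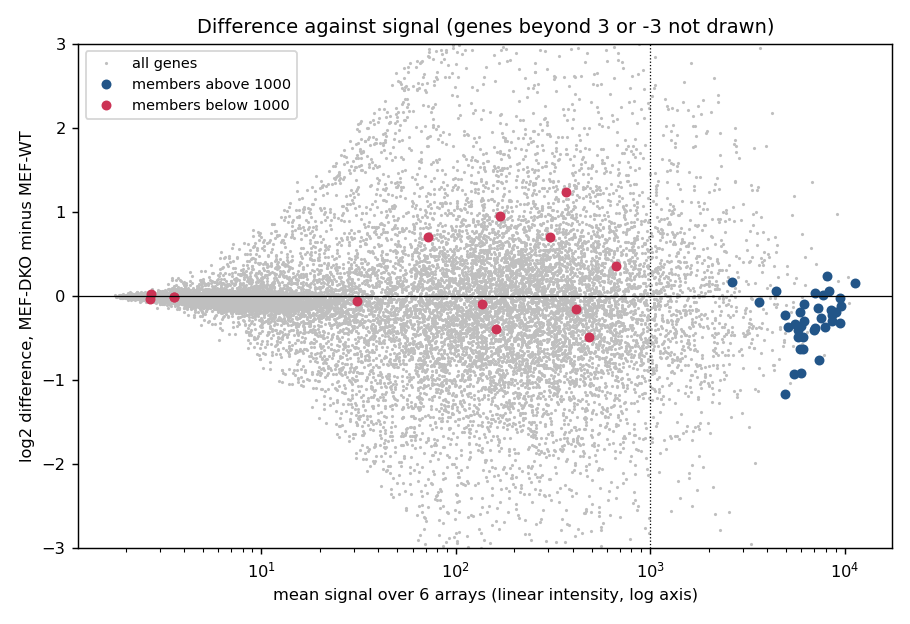
Log2 difference (MEF-DKO minus MEF-WT) against the mean signal over 6 arrays (log axis) for all genes in grey and the ribosomal protein genes in colour; the dotted line marks a signal of 1000. The 36 bright members sit at the far right with a median of -0.28 (0.22 under poly-A spike scaling), where the other genes above 1000 have a median of -0.02 (0.48 under poly-A spike scaling).

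Taken as a share of the summed signal of all genes, the members held 5.97%, 6.02% and 6.01% on the MEF-WT arrays and 4.98%, 5.06% and 5.09% on the MEF-DKO arrays. The share was lower on every MEF-DKO array, and the groups did not overlap. The 60S members held 2.82% ± 0.00898 in MEF-WT and 2.44% ± 0.0247 in MEF-DKO (SD, n = 3 each), and the 40S members 3.18% ± 0.0164 and 2.61% ± 0.0369. A share of signal is not a share of RNA, since each probe set has its own brightness per molecule. It does not change when an array is multiplied by a constant.

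Both subunits showed the pattern. Of the 18 bright 60S members 12 fell and 2 rose (median -0.24), and of the 18 bright 40S members 14 fell and 1 rose (median -0.28). Under poly-A spike scaling the 36 bright members had a median of 0.22. Of the 14 dim members 2 fell, 5 rose and 7 did not pass, with a median of -0.01. Of the other genes with signals up to 1000, 34.9% fell and 23.2% rose. The difference between the bright and the dim members was not tested.

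Rpl11, which with Rpl5 and the 5S RNA forms the particle that also binds the p53 regulator Mdm2, had the lowest difference of the members. Its signals were 6588, 6864 and 7019 on the MEF-WT arrays and 3043, 3002 and 3020 on the MEF-DKO arrays. The 3 MEF-DKO arrays were near-identical and far below the others, at 0.443 of the MEF-WT mean. The log2 difference was -1.17 (SE 0.04, adjusted p = 5.88e-11). Rpl5 had no probe set of its own. The brightest probe set that lists it, shared with a pseudogene entry and so assigned to neither, read 9156 ± 88.2 in MEF-WT and 6843 ± 134 in MEF-DKO, a difference of -0.42. Dimmer probe sets with the same entries rose, from 543.4 ± 14.1 to 741.4 ± 13.2 (0.44) and from 361.9 ± 15.7 to 408.8 ± 34.2 (0.17).

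Rpl22, a protein of the large subunit's outer surface near the exit tunnel, was the second lowest. It read 7271, 7286 and 7166 in MEF-WT and 3754, 3698 and 3984 in MEF-DKO. All MEF-DKO arrays were lower, with a difference of -0.92 (SE 0.04, adjusted p = 8.46e-10). A separate bright probe set of Rpl22, one whose name carries no mark for shared sequence, differed by -1.01. The remaining probe set of Rpl22, a dim one, differed by only -0.12 (754.6 ± 38.4 and 691.4 ± 12.4).

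Its paralog Rpl22l1, which can take the place of Rpl22 in the ribosome and whose mRNA Rpl22 is known to repress, went the other way. The MEF-WT signals were 2500, 2570 and 2385 and the MEF-DKO signals 2538, 3031 and 2811. The groups overlapped, since 1 MEF-DKO array lay between 2 MEF-WT arrays. The difference was 0.16 (SE 0.06, adjusted p = 0.0289), and it did not hold when single arrays were left out: the adjusted p was 0.0569 without MEF-WT 1, 0.0917 without MEF-WT 3, 0.134 without MEF-DKO 2 and 0.0772 without MEF-DKO 3. Under hybridization spike scaling it was -0.10.

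The pair was also compared within each array, as the difference of log2(signal + 16), which for bright genes hardly depends on how an array was scaled. The log2 ratio of Rpl22l1 to Rpl22 was -1.53, -1.50 and -1.58 in MEF-WT and -0.56, -0.29 and -0.50 in MEF-DKO. The groups did not overlap, and the MEF-DKO mean was higher by 1.09 (exact permutation p = 0.1, two-sided, the smallest that 3 against 3 arrays allow; 0.167 adjusted over 5 pairs). For Rpl7l1 to Rpl7 the difference between the groups was 1.32 (exact permutation p = 0.1, 0.167 adjusted) and for Rps27l to Rps27 0.02 (exact permutation p = 0.6). Rpl7l1 and Rps27 were read from dim probe sets. A bright probe set that lists Rps27 with another symbol differed by -0.22, so the Rps27 ratio depends on the probe set. The ratios of Rpl39l to Rpl39 and of Rps4l to Rps4x are not read, since Rpl39l and Rps4l lay below the added 16. These ratios compare the groups within a pair and say nothing of the levels of different genes.

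**Figure D3:**
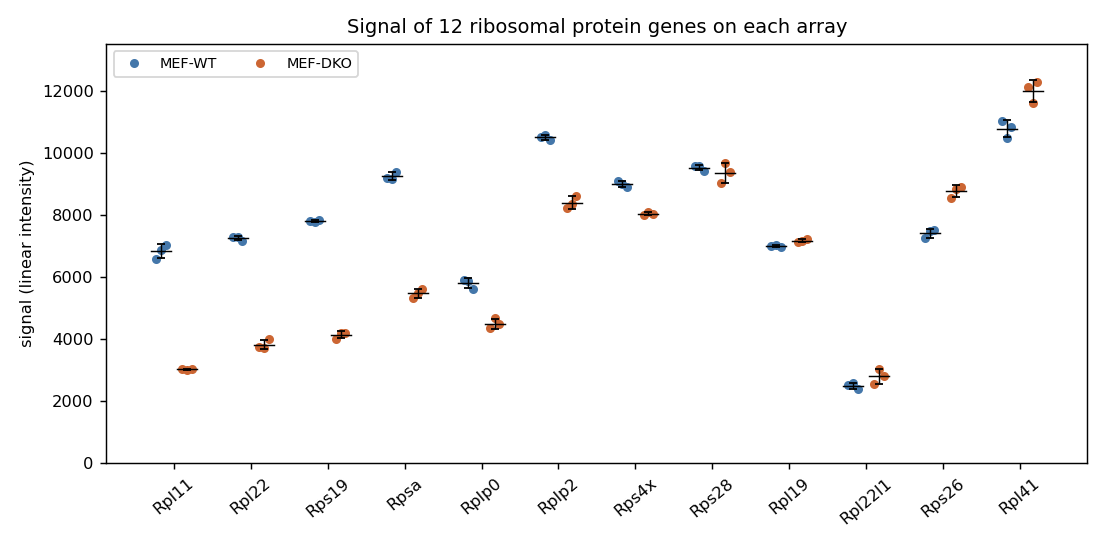
Signal (linear intensity) of 12 ribosomal protein genes on each of the 3 MEF-WT (blue) and 3 MEF-DKO (orange) arrays; lines are means and bars SD. Rpl11, Rpl22, Rps19 and Rpsa are lower on each MEF-DKO array, Rps28 and Rpl22l1 overlap, and Rps26 and Rpl41 are higher, a rise that turned to -0.02 and -0.11 under hybridization spike scaling.

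Of the other paralogs, 4 did not pass. Rps27l, a copy of Rps27 known as a p53 target, read 3726 ± 95.7 in MEF-WT and 3539 ± 78.4 in MEF-DKO (SD, n = 3 each; difference -0.07, 95% interval -0.16 to 0.01). The main gene Rps27 was dim (141.5 ± 2.52 and 131.7 ± 4.57, -0.09). Rpl3l, known from striated muscle, Rpl39l, known from testis, and Rps4l had mean signals between 2.50 and 3.68 in both groups, near the lowest of the array.

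The proteins of the P stalk, the flexible arm that recruits and activates elongation factors, were lower. Rplp0, its base, read 5911, 5872 and 5614 in MEF-WT and 4335, 4665 and 4469 in MEF-DKO (difference -0.37, SE 0.04, adjusted p = 7.74e-06). Rplp2, one of its acidic tips, read 10500, 10577 and 10412 against 8222, 8329 and 8619 (-0.32, SE 0.04, adjusted p = 1.65e-05). In both genes each MEF-DKO array was below each MEF-WT array. Rplp1 had no probe set of its own, and one that lists it with another entry differed by -0.30. Under poly-A spike scaling Rplp0 and Rplp2 were at 0.13 and 0.18.

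In the head of the small subunit, the part that contacts the tRNAs and the incoming mRNA, 7 of 10 measured members fell and 1 rose. Over all genes 35.5% fell and 24.2% rose, and over other bright genes 44.9% and 43.8%. The median of the 10 was -0.39. Rps19, which is needed to mature the 18S RNA and whose loss causes Diamond-Blackfan anaemia, had the lowest value of them. It read 7798, 7777 and 7826 in MEF-WT and 4007, 4202 and 4204 in MEF-DKO. The MEF-DKO arrays were lower by -0.91 (SE 0.04, adjusted p = 5.56e-10), with no overlap.

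Rps18, which sits between head and large subunit, read 7433, 7562 and 7246 in MEF-WT and 4290, 5134 and 4997 in MEF-DKO. The difference was -0.63 (SE 0.06, adjusted p = 1.4e-06), with the MEF-DKO arrays more spread than the others. Rps20, of the head as well, differed by -0.62 (7122 ± 172 to 4618 ± 280). Rps3, which lies at the mRNA entry and has a DNA repair activity, differed by -0.49 (7167 ± 171 to 5111 ± 43.4), and Rps10, on which stalled ribosomes are marked with ubiquitin, by -0.40 (7983 ± 137 to 6027 ± 188). Rps15 and Rps29 fell too. Rps28, at the mRNA exit, did not pass, with 9509 ± 79.2 and 9354 ± 319 (-0.02, 95% interval -0.12 to 0.07).

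In the body and platform of the small subunit 7 of 11 members fell and 2 rose, with a median of -0.19, where 35.5% of all genes fell and 24.2% rose. Rpsa, which is also known as the laminin receptor, read 9191, 9162 and 9380 in MEF-WT and 5313, 5476 and 5617 in MEF-DKO. All MEF-DKO arrays were lower, by -0.76 (SE 0.04, adjusted p = 4.54e-09). Its probe set has a name without a mark for shared sequence. Rps7, Rps14, Rps2, Rps9 and Rps3a1 fell by smaller amounts, and Rps3a1, among the 5 brightest members, went from 9641 ± 166 to 8457 ± 287 (-0.19).

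The X-linked Rps4x read 9078, 9001 and 8906 in MEF-WT and 7986, 8081 and 8028 in MEF-DKO. It was lower on each MEF-DKO array, by -0.16 (SE 0.04, adjusted p = 0.00287), and under poly-A spike scaling stood at 0.34. The other X-linked member, Rpl39, was dim (32.2 ± 2.67 and 30.1 ± 1.08) and did not pass. Rpl10, also X-linked, was listed together with a predicted gene on its bright probe sets, which differed by -0.03 and 0.01.

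Rps26, which contacts the mRNA at the exit of the small subunit, rose. It read 7245, 7470 and 7510 in MEF-WT and 8545, 8837 and 8894 in MEF-DKO. Each MEF-DKO array was higher, by 0.24 (SE 0.04, adjusted p = 0.000212). Rpl41, a very short peptide at the surface between the subunits, rose too: 11022, 10483 and 10816 in MEF-WT and 12119, 11592 and 12266 in MEF-DKO, a difference of 0.15 (SE 0.04, adjusted p = 0.00917; adjusted p = 0.0530 without MEF-WT 2). Another bright probe set of Rpl41 rose by 0.21. Dim ones rose far more, from 66.2 ± 1.42 to 331.2 ± 30.7 (2.08) and from 23.6 ± 0.872 to 134.2 ± 11.4 (1.92). With each chromosome centred, Rps26 was at -0.07 and Rpl41, on its brightest probe set, at -0.16.

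Among proteins at the peptide exit tunnel 3 of 5 measured members fell (Rpl22, Rpl4 and Rpl35), none rose, and Rpl19 and Rpl39 did not pass. The shares were 35.5% and 24.2% over all genes, and 44.9% and 43.8% over other bright genes. Rpl35 went from 6155 ± 11.6 to 4906 ± 190 (-0.33), and Rpl10a, a large subunit protein at the L1 stalk, from 6729 ± 55.2 to 4778 ± 53.7 (-0.49, adjusted p = 1.3e-07). Under poly-A spike scaling Rpl35 was at 0.17 and Rpl10a at 0.0077. Rpl37a, among the 5 brightest, went from 9954 ± 282 to 9142 ± 264 (-0.12, adjusted p = 0.029). That call was lost without MEF-WT 2 (adjusted p = 0.0926), MEF-WT 3 (0.0784), MEF-DKO 1 (0.0725) or MEF-DKO 2 (0.0770). Rpl7 did not pass (6358 ± 137 and 5976 ± 88.0, -0.09).

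The remaining bright members that fell were Rpl13a, Rpl4, Rpl6, Rpl8, Rpl7a, Rps7, Rps15, Rps14, Rps2, Rps9 and Rps29, with differences from -0.40 to -0.14. Those that did not pass on the chosen probe set were Rps24, Rpl19, Rpl27 and Rpl38, at 0.01 to 0.06. Further bright probe sets of Rpl27 fell (-0.23 and -0.32). For Rps24 a further bright one fell (-0.21), and others did not pass (-0.13 and 0.01).

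The 5 dim members that rose were Rpl7l1, Rps25, Rpl12, Rps6 and Rpl27a. Rpl7l1, a nucleolar paralog of Rpl7 that acts in ribosome assembly, read 242, 203 and 196 in MEF-WT and 498, 538 and 531 in MEF-DKO. The MEF-DKO arrays were all far higher, by 1.24 (SE 0.07, adjusted p = 6.26e-09). Its 2 other probe sets differed by 1.04 and, not passing, by 0.12.

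Rps6, the substrate of the S6 kinases downstream of mTORC1, read 231, 227 and 231 in MEF-WT and 353, 403 and 396 in MEF-DKO. That was a rise of 0.70 (SE 0.05, adjusted p = 1.33e-07) with no overlap. A much brighter probe set that lists Rps6 together with a pseudogene entry, and so was assigned to neither, read 11631 ± 54.1 in MEF-WT and 8722 ± 221 in MEF-DKO, a difference of -0.41. These 2 probe sets thus moved in opposite directions on the same arrays. Dimmer probe sets that list Rps6 with the same pseudogene entry fell too. Among them were changes from 499.8 ± 29.5 to 296.8 ± 27.6 (-0.72) and from 444.6 ± 47.9 to 220.3 ± 26.0 (-0.96). The Rps6 probe sets were therefore not split by signal alone.

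In 3 more members a dim probe set of the gene alone and a bright shared one also moved in opposite directions. Rps25, which is used by some viral internal ribosome entry sites, rose from 109.7 ± 2.18 to 228.3 ± 6.53 (0.96) on its own dim probe set, and a bright one listing it with predicted genes differed by -0.40. Rpl12, at the base of the stalk, read 50.7 ± 7.65 and 92.9 ± 11.8 (0.71) against -0.45 on the shared one, and Rpl27a 586.1 ± 37.6 and 754.3 ± 67.0 (0.35) against -0.41. Rpl14 and Rpl39 had a lower value on the bright shared probe set too (-0.84 and -0.31, against -0.39 and -0.06 on their own). The ratio of the dim to the bright probe set was taken with 16 added to both signals. In each of these 6 it was higher on every MEF-DKO array (exact permutation p = 0.1, the smallest possible, and 0.1 adjusted over 7). For Rpl39, with own signals of 32.2 and 30.1, the added 16 is a large part of the value, so its ratio is not read. The other of the 7, Rps16, read 2.95 and 2.42 on its own probe set, below the added 16, so no ratio is read there, and its bright shared probe set differed by -0.42. The dim members Rpl37 and Rps27 were not among the 7, since their shared probe sets list another ribosomal protein symbol as well. Rpl37 fell from 566.1 ± 38.4 to 399.1 ± 24.9 (-0.49) on its own probe set. Its brightest shared one did not pass, with 9166 ± 173 and 9285 ± 226 (0.02), and another bright one differed by -0.34. Rps27 differed by -0.09 on its own and by -0.22 on the shared one. Rps19bp1 (437.7 ± 31.1 and 393.0 ± 40.9, -0.15) did not pass.

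**Figure D4:**
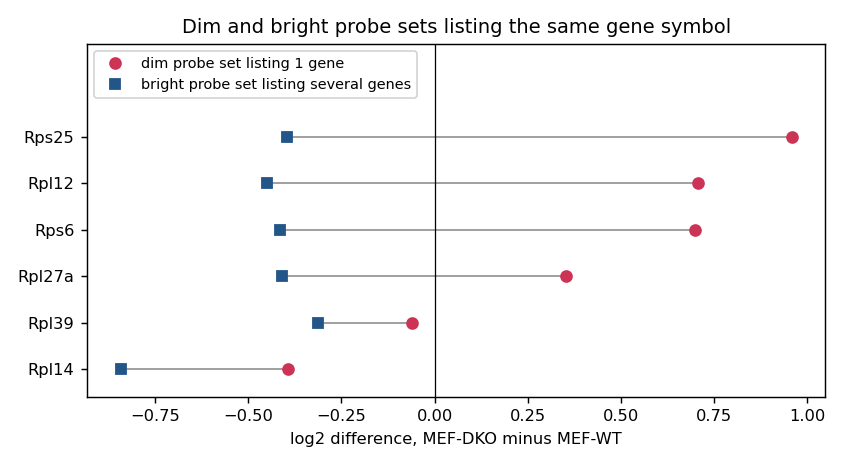
Log2 difference (MEF-DKO minus MEF-WT, authors' scale) of the dim probe set assigned to a gene alone (red circles) and of the brightest probe set that lists the same symbol with other genes (blue squares), for 6 members. Each square lies left of its circle, and for Rps25, Rpl12, Rps6 and Rpl27a they lie on opposite sides of 0. Not drawn are Rpl37, which went the other way (0.02 on its brightest shared probe set, -0.49 on its own), and Rps27 (-0.22 and -0.09).

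Across the probe sets assigned to the members alone the same split by signal appeared. The 106 probe sets assigned to the members alone held 58 that fell and 19 that rose (27.3% and 24.9% of all probe sets). Of the 69 bright ones 53 fell and 4 rose (49.8% and 39.6% of all bright probe sets), and of the 37 dim ones 5 fell and 15 rose (26.4% and 24.4% of all dim probe sets). A further 110 probe sets list a ribosomal protein symbol with other genes, mostly pseudogenes. Of their 80 bright ones 70 fell and 4 rose, with a median of -0.41. Of their 30 dim ones 15 fell and 9 rose, with a median of -0.12, so most of the dim shared ones did not rise.

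The second and further probe sets of 24 members numbered 56, of which 28 passed in the direction of the chosen one, 6 passed in the opposite direction, and 22 had one or both not past the threshold. The 6 belonged to Rps10, Rps18, Rps9 and Rpl35, and their mean signals were at most 197. For Rps9 the chosen probe set differed by -0.23 (5348 ± 175 to 4571 ± 216) and a dim one by 1.97 (69.1 ± 4.57 to 325.6 ± 85.7). Of the 33 bright further probe sets 23 passed in the same direction and none in the opposite one, while 10 had one or both not past it.

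The size of the change differed between bright probe sets of one gene. In 12 of 17 members with at least 2 bright probe sets the brightest one showed the smallest change. The 12 include Rpl41, which rose, Rpl27, which did not pass, and near ties such as Rps14 (-0.293 and -0.300). How many of the 17 would be so by chance was not computed. Rpl13a, a large subunit protein also known for silencing inflammatory mRNAs, differed by -0.40 on the brightest and by -1.58 on another, and Rps20 by -0.62 and -1.002; Rpl13a was picked for this after its values were seen. Whether the height of the signal itself took part in this was not tested.

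Array probe set names mark those that can match other genes or transcript variants. Of the 36 bright members 4 were read from a probe set without such a mark, and 2 more had one that was not the brightest. Of these 6 unmarked bright probe sets, those of Rpl22 (-1.01), Rpsa (-0.76), Rps15 (-0.38) and Rplp0 (-0.37) fell, and those of Rpl19 (0.04) and Rpl27 (0.06) did not pass. In 21 other members the brightest unmarked probe set was dim, and of these 21 probe sets 3 fell and 11 rose. Among the 3 was that of Rps16, which lay below the added 16. With marked probe sets left out, 27 members remained, with 6 that fell and a median of 0.03. More of them rose than fell: 6 rose and 5 fell of the bright members left, and 5 rose and 1 fell of the dim ones. The share of all genes under this choice is not given here.

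The sign of the pattern depended on how the arrays were scaled. The poly-A control RNAs spiked into the samples read lower in MEF-DKO by -0.45 (log2, exact permutation p = 0.1), and the hybridization controls higher by 0.26 (exact permutation p = 0.1). Scaled to the poly-A controls, 3 members fell and 27 rose, and scaled to the hybridization controls 37 fell and 4 rose. Other bright genes shifted too, to medians of 0.48 and -0.28. The shares of all genes under these scalings are not given here, so the counts are not read as particular to the members. The bright members' median minus that of the other bright genes was -0.26 under the authors' scale, -0.26 under poly-A spike scaling and -0.27 under hybridization spike scaling, as it has to be nearly constant where each array is multiplied by 1 factor. It was -0.13 after quantile normalization and -0.18 with each chromosome centred. The log2 ratio of 3′ to 5′ actin probe sets, a measure of RNA quality, was 0.47 ± 0.03 in MEF-WT and 0.36 ± 0.01 in MEF-DKO (exact permutation p = 0.1). Its part in these results was not tested.

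**Figure D5:**
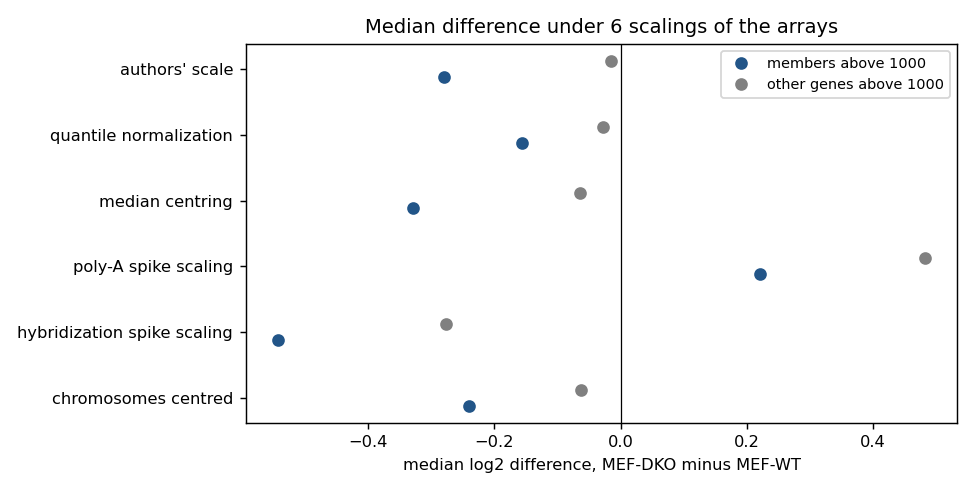
Median log2 difference (MEF-DKO minus MEF-WT) of the 36 ribosomal protein genes above a signal of 1000 (blue) and of the other genes above 1000 (grey) under 6 scalings of the arrays. Blue lies left of grey in each, by -0.26 on the authors' scale and -0.13 after quantile normalization, and blue is above 0 under poly-A spike scaling (0.22).

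Differences also varied with the chromosome. The median over other bright genes was -0.67 on chromosome 4, where Rpl11, Rpl22 and Rps20 lie, and -0.40 on chromosome 7, where Rps19, Rps3, Rpl13a, Rplp2 and Rps9 lie. It was 0.29 on chromosome 10, where Rps26 and Rpl41 rose and Rps15 fell (-0.37). On chromosome 11, where Rpl19, Rpl27 and Rpl38 did not pass, it was 0.18. Members also fell where the median was above 0, as Rpl35 (-0.33) and Rpl7a (-0.14) on chromosome 2 (0.27) and Rps14 (-0.29) on chromosome 18 (0.37). Rps24 (0.01), on chromosome 14 (0.38), did not pass. Set against the median of its own chromosome, 26 of the 36 bright members were lower and 10 higher, with a median of -0.13. Rpsa (-0.74), Rps15 (-0.66) and Rps14 (-0.66) then stood lowest, Rpl11 was at -0.50, Rpl22 at -0.25 and Rps20 at 0.05. The part of the chromosome in these results was not otherwise tested.

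Other genes of protein synthesis gave a mixed picture on the authors' scale, and under poly-A spike scaling the medians of the 6 lists below were above 0. Over all genes 35.5% fell and 24.2% rose. Fau, a small subunit protein with a name outside the rule, fell from 7198 ± 176 to 4841 ± 291 (-0.57). Of 9 elongation factors and other mRNAs with TOP tracts 7 fell and 1 rose (median -0.27), among them Eef1d (-0.47), Eif5a (-0.39), Nap1l1 (-0.38) and Eef1b2 (-0.37), while Tpt1, a growth-related TOP mRNA, rose by 0.23. Of 32 translation initiation factors 21 fell and 7 rose (median -0.19), where 44.9% of other genes above a signal of 1000 fell. The cap-binding homolog Eif4e2 (-1.39), the scanning factor Eif1ax (-1.24) and the exchange factor subunit Eif2b3 (-1.55) fell, and the scaffold Eif4g3 rose (2.29).

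Of 70 genes of ribosome assembly and RNA polymerase I 36 fell and 15 rose (51.4% and 21.4%, against 35.5% and 24.2% of all genes), with a median of -0.13. The polymerase I factors Taf1b (-2.40) and Tcof1 (-1.51) and the shared subunit Polr1d (-1.14) fell, and Gnl3, a nucleolar GTPase, rose (1.24). Of 11 genes of ribosome rescue and quality control 8 fell and 3 rose (median -0.24), with Tcf25 (-1.13), Usp10 (-1.03), Zfp598 (-0.94), which marks collided ribosomes, and Ltn1 (-0.76) lowest. The 76 mitochondrial ribosomal proteins, which form the separate ribosome of that organelle, held 50 that fell and 19 that rose (median -0.36). Mrpl48 (-2.30), Mrpl37 (-1.45) and Mrps15 (-1.40) fell, and Mrps6 rose (1.4997).

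Among 17 regulators of mTORC1 and Myc 7 fell and 7 rose (41.2% each), with a median of -0.08, where 35.5% of all genes fell and 24.2% rose. The translation repressors that mTORC1 inactivates were lower: Eif4ebp1 went from 3021 ± 76.1 to 724 ± 7.07 (-2.04) and Eif4ebp2 from 376.6 ± 13.2 to 138.3 ± 7.53 (-1.35). Eef2k, the kinase that slows elongation, fell by 1.45 on the log2 scale. Deptor, an inhibitor within the mTOR complexes, rose from 52.4 ± 4.2 to 287.2 ± 8.27 (2.15).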

How the data were processed

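The authors deposited 1 linear intensity per probe set and array; MAS5 is named in the submitters' processing notes, with no version, role or scaling in the sources used here. Of 45101 probe sets 34945 were assigned to 1 gene, 932 to several, 9160 were unnamed here and 64 were controls. By Entrez number 34741 matched RefSeq GRCm38.p6, and the others kept the annotation's symbol. Groups and replicate numbers came from the sample titles. Signals were taken as log2(signal + 16) and fitted in R 4.3.3 with limma 3.58.1 (lmFit, eBayes with trend), two-sided, Benjamini-Hochberg over 18193 genes or over all probe sets; the offset understates changes of dim genes. The code was tested on simulated data. The members and lists were chosen with earlier results of these data known, so no list was tested. Named genes were the 10 highest and lowest past the threshold, the listed structural groups and paralogs, the 5 brightest, and those with an opposite probe set. Spike scaling multiplied each array's linear signals by 1 factor before the offset. Alternatives covered offset, normalization, spike centring, chromosomes, probe set choice, moderation, weights, left-out arrays and a replicate block. The number of arrays limits the precision.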

Additional observations from a re-analysis of the deposited data

How the results depend on the processing

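On the authors' scale 28 members fell and 8 rose (median -0.18), and of the bright ones 26 fell and 3 rose (median -0.28). Leaving out 1 array at a time gave 26 to 29 that fell, 7 to 8 that rose and medians from -0.19 to -0.17, and for the bright ones 24 to 26, 2 to 3 and -0.30 to -0.26. Same-numbered arrays correlated at 0.04, 0.11 and 0.16 after the group means were removed, so the numbers were not taken to pair them, although each array correlated best with its own number, as a hint from the data. With the replicate number as a block 28 fell and 8 rose (bright 26 and 3), and no named call changed.

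Poly-A spike controls were used in 2 ways. Centring the log2 values after the offset, the alternative as first listed, shifts every gene alike and overstates the shift of dim genes. It gave 29 that rose and 4 that fell (median 0.27), and 17 and 4 of the bright ones (0.17), with other bright genes at 0.43 and all genes at 0.42. Multiplying the linear signals before the offset, chosen after the data were seen, gave 27 and 3 (0.25), bright 16 and 3 (0.22), other bright genes 0.48 and all genes 0.12. List medians, after the offset and before it, were 0.32 and 0.36 for assembly, 0.26 and 0.31 for initiation, 0.18 and 0.22 for elongation and TOP mRNAs, 0.37 and 0.27 for mTORC1 and Myc, 0.21 and 0.15 for rescue, and 0.090 and 0.13 for mitochondrial ribosomal proteins. The sign turned in 28 and 30 of the 50 members. The named ones after the offset were Rpl35 0.12, Rpl37a 0.33, Rpl39 0.39, Rpl39l 0.44, Rpl7 0.36, Rplp0 0.079, Rplp2 0.12, Rps10 0.043, Rps27 0.35, Rps27l 0.37, Rps28 0.42, Rps3a1 0.26, Rps4l 0.43, Rps4x 0.28 and Rps9 0.22. Before it they were Rpl10a 0.0077, Rpl35 0.17, Rpl37a 0.38, Rpl39 0.27, Rpl39l 0.080, Rpl7 0.41, Rplp0 0.13, Rplp2 0.18, Rps10 0.096, Rps27 0.36, Rps27l 0.43, Rps28 0.48, Rps3 0.014, Rps3a1 0.31, Rps4l 0.073, Rps4x 0.34 and Rps9 0.27. Hybridization spikes gave, after and before the offset, 4 and 4 that rose (bright 0 and 0), medians of -0.43 and -0.44 and, bright, -0.54 and -0.54, with Rpl22l1 at -0.093 and -0.098, Rpl41 at -0.10 and -0.11, Rps26 at -0.017 and -0.022, and Rpl3l, after the offset, at -0.23.

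Quantile normalization gave medians of -0.10 and, bright, -0.16, with 5 bright that rose and Rpl7 at 0.10, and median centring -0.23 and -0.33. With chromosomes centred 5 rose (bright 0), the bright median was -0.24, and Rpl41 was at -0.16, Rps20 at 0.022 and Rps26 at -0.071. Without dim genes the median was -0.22 and that of mTORC1 and Myc 0.079. Averaged probe sets gave 5 bright that rose, a bright median of -0.24, other bright genes at 0.046 and Rps9 at 0.81.

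Without marked probe sets 6 of 27 members fell (median 0.030), and of the dim members 5 rose and 1 fell. Of the 14 bright members left, read mostly from dim probe sets, 6 rose and 5 fell (0.046), with mTORC1 and Myc at 0.084, other bright genes at 0.059, Rpl35 at 0.33, Rps10 at 0.38, Rps18 at 0.44, Rps20 at 0.021 and Rps9 at 0.69. With probe sets of several genes allowed, an alternative chosen after the data were seen, as was the split at a signal of 1000, 54 of 74 fell and 5 rose (median -0.29), 53 of 67 bright fell (-0.30), and Rpl12 was at -0.45, Rpl27a at -0.41, Rps25 at -0.40 and Rps6 at -0.41. The cause of these changes was not tested. Shares of all genes under the alternative settings are not given here, so the member counts under them have no background beside them.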
